A study of Mus musculus with 8 samples.

Results

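The Hox genes of mouse were described over 8 Affymetrix arrays of colon and small intestine. Every gene whose platform symbol was Hox, a cluster letter and a paralogue number was taken if at least 1 probe set was assigned to it alone. This gave 33 of the 18193 genes on the array, out of 39 Hox genes in the RefSeq gene table. The 33 genes had 48 probe sets of their own, and 11 genes had more than 1. The rule used no measured value, but it was set with earlier results of these data known.

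Hox genes encode homeodomain transcription factors that give cells their position along the head-to-tail axis. They lie in 4 clusters, HoxA on chromosome 6, HoxB on 11, HoxC on 15 and HoxD on 2, and genes with the same number in different clusters are paralogues. Within a cluster, low-numbered genes are expressed from anterior levels of the body and high-numbered genes only towards the tail, and adult gut keeps part of this order. In the gut both the mesenchyme (smooth muscle, fibroblasts) and the epithelium express them. The high-numbered genes of HoxA and HoxD are needed for the hindgut, from which the distal colon forms.

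All mice were C57BL/6 and 110 days old. Colon tumours came from ACKR2KO_ApcMin mice (ACKR2-/-ApcMin/+) and ApcMin mice (ApcMin/+), and colon without tumours came from ACKR2KO mice (ACKR2-/-) and WT mice. The same 4 genotypes gave small-intestinal tumours and small intestine without tumours. The Min mutation of Apc, a tumour suppressor of the Wnt pathway, gives mice spontaneous intestinal tumours, and ACKR2 (D6) scavenges inflammatory chemokines. RNA was pooled within each genotype and tissue, so each group was 1 array, and how many mice a pool held is not given in the sources used here. Tissue without tumours came from mice without the Apc mutation, not from the tumour-bearing mice. The labels name the ileum for the small-intestinal tumours but no segment for the other small intestine, nor for any colon sample.

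Each tissue and tumour status was therefore represented by 2 pools, 1 without and 1 with ACKR2, and the spread between those pools was the only error available. The p-values describe these pools and carry no estimate of the variation between animals. Signals are linear intensities scaled to the same trimmed mean of 500 on every array. Signals below a floor of 64.1 (6.00 on the log2 scale) were set to it for the comparisons. A difference from a value at the floor is a lower bound on its size. Where both pools of a group were set to the floor, their spread was 0 by construction. The standard errors and p-values of such genes are therefore partly set by the floor. Signals of different probe sets are not comparable, so only the same gene is compared between arrays. Genes that exceeded the floor on 2 or more arrays were tested, and a gene was called when its limma adjusted p, over 14023 genes, was under 0.05. In such RNA from whole tissue, fewer cells of a type and less RNA per cell cannot be told apart.

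Of the 33 Hox genes, 24 were tested. The other 9 (Hoxa4, Hoxb1, Hoxb7, Hoxc5, Hoxc9, Hoxc10, Hoxc13, Hoxd1 and Hoxd3) were above the floor in 0 or 1 array. Hoxc9 had its 1 value above the floor, 171, in ACKR2KO small intestine, and Hoxa4 had 71.6 in ApcMin colon tumours. HoxA kept 8 of 9 genes, HoxB 7 of 9, HoxC 3 of 7 and HoxD 6 of 8. By paralogue number, 4 of 7 anterior genes (1 to 3), 9 of 12 central genes (4 to 8) and 11 of 14 posterior genes (9 to 13) were tested. Hoxb8 and Hoxd4 shared all their probe sets with Hoxb7 and Hoxd3 and were not members.

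Promoter sequences from the RefSeq tables (GRCm38.p6) matched 19 of the 33 genes. In colon tumours the neighbours Hoxa9 and Hoxa10 were both higher, and the neighbours Hoxd10 and Hoxd11 were both lower. The 250 bases before the start site are shown for these 2 pairs of genes. Each is written 5′ to 3′ on the gene's strand, and capitals mark the letters TTTAT or its reverse complement ATAAA, the core that caudal and posterior Hox proteins recognise. For Hoxa10 and Hoxd11 the most upstream of 2 listed starts was used. The Hoxd10 stretch lies inside the span listed for that gene (74684273 to 74695106), not before it.
Hoxa9 (chr6:52227371-52227620, minus strand): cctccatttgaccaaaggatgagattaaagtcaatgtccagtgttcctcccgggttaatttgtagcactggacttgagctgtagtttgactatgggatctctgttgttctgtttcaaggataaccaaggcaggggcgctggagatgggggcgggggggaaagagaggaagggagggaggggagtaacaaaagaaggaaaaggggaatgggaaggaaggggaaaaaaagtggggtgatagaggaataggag
Hoxa10 (chr6:52240855-52241104, minus strand): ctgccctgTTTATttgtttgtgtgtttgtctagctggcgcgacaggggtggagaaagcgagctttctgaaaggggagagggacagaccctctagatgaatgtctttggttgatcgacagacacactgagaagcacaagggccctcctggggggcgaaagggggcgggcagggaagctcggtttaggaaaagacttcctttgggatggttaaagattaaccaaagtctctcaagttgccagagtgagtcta
Hoxd10 (chr2:74691641-74691890, plus strand): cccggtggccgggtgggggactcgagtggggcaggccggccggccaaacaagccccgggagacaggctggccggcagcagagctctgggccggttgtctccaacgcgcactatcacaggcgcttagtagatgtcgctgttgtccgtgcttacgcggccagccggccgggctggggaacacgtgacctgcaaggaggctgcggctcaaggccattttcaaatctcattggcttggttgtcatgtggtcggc
Hoxd11 (chr2:74679308-74679557, plus strand): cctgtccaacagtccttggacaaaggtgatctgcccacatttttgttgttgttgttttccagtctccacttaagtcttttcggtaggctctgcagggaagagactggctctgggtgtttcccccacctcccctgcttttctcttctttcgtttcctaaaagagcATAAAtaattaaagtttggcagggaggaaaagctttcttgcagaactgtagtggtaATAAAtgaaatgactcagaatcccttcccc
The TTTAT core, searched on both strands, was found in 6 of 19 Hox promoters (31.6%) and in 37.3% of all 32851 promoters of the same length. The letters CTTTGA or TCAAAG, the core bound by the TCF/LEF factors of the Wnt pathway, were in 2 of 19 (10.5%) and in 13.8% of all promoters. The Hox promoters had a median GC content of 58.0%, against 52.4% over all promoters. Their median ratio of observed to expected CpG was 0.52, against 0.37.

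Before the tissues were compared, their labels were checked against known genes. The ileal bile acid-binding protein Fabp6 had signals of 90.4 to 324 in the 4 colon arrays, against 26100 to 39500 in the 4 small-intestinal arrays. Of 6 genes that mark small intestine or colon, Fabp6, Fabp2, Apoa1, Slc10a2 and Gata4 were lower in colon in both comparisons of tissues. The colonic carbonic anhydrase Car1 went against 1 label. It had signals of 9190 to 19300 in the 4 colon arrays and of 42.3 to 114 in 3 small-intestinal arrays, but 18900 in WT small intestine. In each comparison below, calls that change without the array labelled WT small intestine are therefore given. The WT arrays also differed in sex markers. The Y-linked Eif2s3y had signals of 888 to 1500 in 6 arrays, against 2.92 and 2.66 in WT colon and WT small intestine. Xist had 77.9 and 127 in the ACKR2KO_ApcMin colon and small-intestinal tumours, against 2820 to 9810 elsewhere. Within each tissue and ACKR2 status, Xist was lower and Eif2s3y higher in tumours than in tissue without tumours. In the comparisons of tumours with tissue without tumours, sex markers and tumour status therefore cannot be told apart. The Actb 3'/5' signal ratio was 1.28 to 1.39 in the 4 arrays without ACKR2, against 1.13 to 1.17 in the other 4. Ackr2 itself gave signals of 71.3 to 153 on all arrays and did not separate the genotypes.

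**Figure D1:**
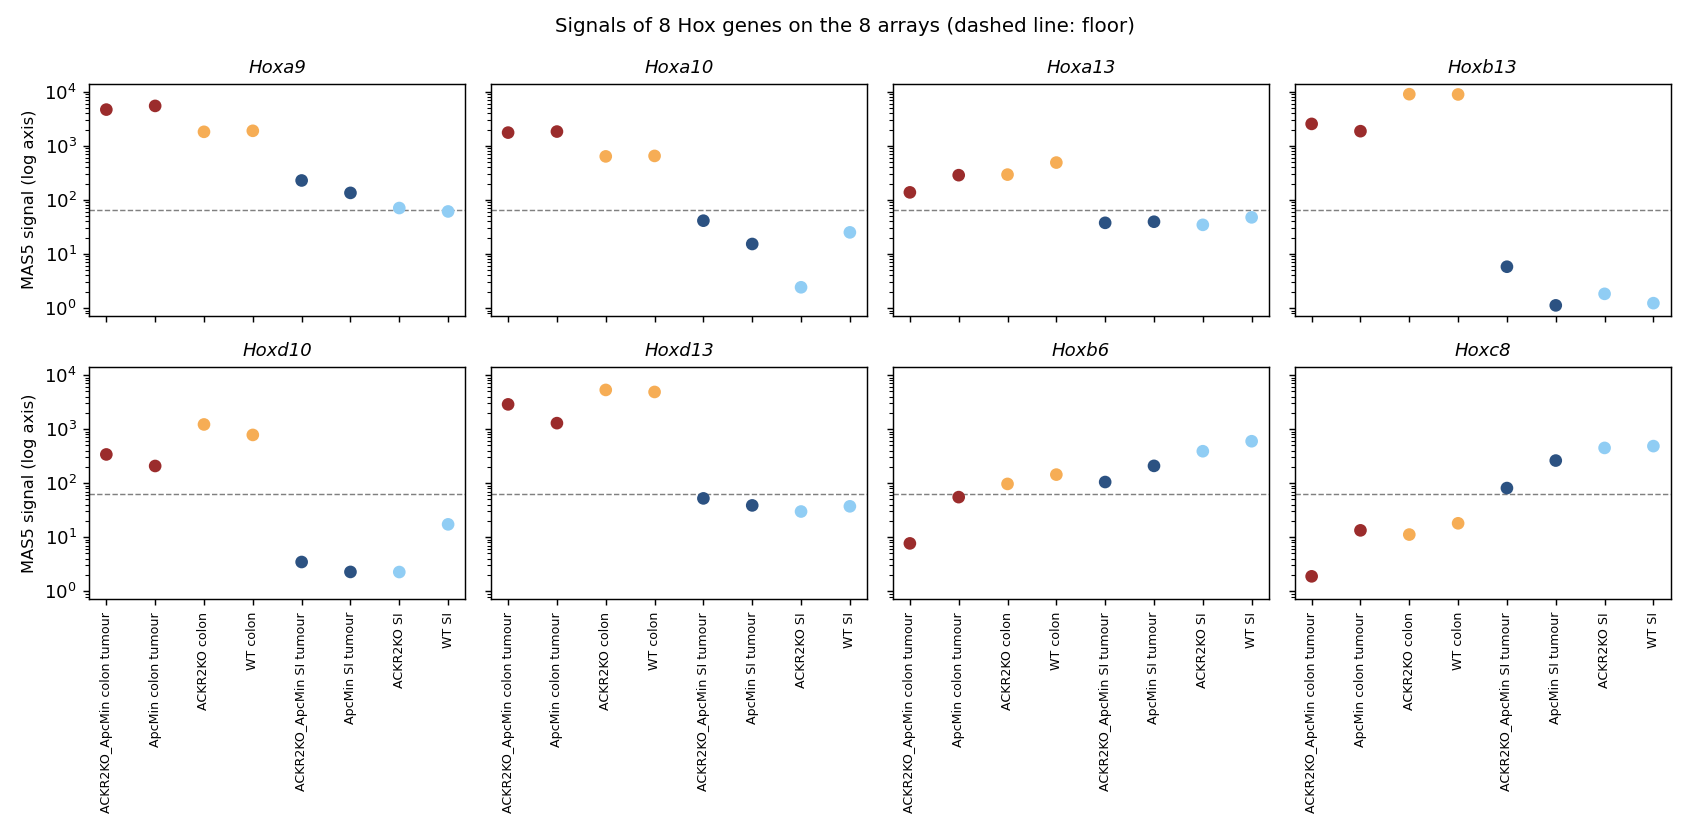
Signals of 8 Hox genes on the 8 arrays (log axis, dashed line at the floor of 64.1); points are single arrays, and SI is small intestine. Hoxa9, Hoxa10, Hoxa13, Hoxb13, Hoxd10 and Hoxd13 are higher on all 4 colon arrays than on all 4 small-intestinal arrays, while Hoxb6 and Hoxc8 are highest in small intestine without tumours.

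In colon without tumours, posterior Hox genes were higher and several central ones lower than in small intestine without tumours. Of 24 Hox genes, 9 were higher in colon and 4 lower, a total of 54.2%, while 11.1% of all tested genes were called in this comparison (6.31% higher and 4.83% lower). All 9 higher genes were posterior, out of 11 posterior genes tested, and all 4 lower genes were central, out of 9. Hoxa10, Hoxa13, Hoxb13, Hoxd9, Hoxd10, Hoxd11, Hoxd12 and Hoxd13 were under the floor on all small-intestinal arrays. They were tested only through their colon signals, so they could only be higher in colon or unchanged. The same held for Hoxa2 and Hoxa7, which are not posterior. Hoxc4 and Hoxc8, under the floor on all colon arrays, could only be lower or unchanged. The counts, medians and correlation given here rest in part on such genes. None of the 4 anterior genes was called. The median difference was 2.70 on the log2 scale for posterior and -1.35 for central genes, beside 0.11 over all tested genes. Hoxa5, 1 of the 4 lower genes, supplied that central median, and its other probe set was higher in colon, by 2.19. Across the 24 genes the difference followed the paralogue number with a Spearman correlation of 0.68, a description only, since the genes share clusters and arrays.

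HoxB and HoxD held the genes with the widest gaps. Hoxb13, the only HoxB gene beyond number 9, had signals of 9040 and 8940 in ACKR2KO and WT colon, against 1.83 and 1.23 in ACKR2KO and WT small intestine. It was at least 140-fold higher in colon (log2 difference 7.13 ± 0.26, SE, adjusted p = 1.29e-05), and in small intestine it never reached the floor. Hoxd13, needed for the anal sphincter and digits in mouse, had 5310 and 4870 in ACKR2KO and WT colon, against 29.9 and 37.3 in ACKR2KO and WT small intestine. This was at least 79.3-fold higher in colon (6.31 ± 0.39, adjusted p = 9.35e-05). Its second probe set differed in the same direction, by 4.69. The pools of each tissue lay close together and far from the other tissue.

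Hoxd10 and Hoxd11 followed the same order. Hoxd10 had signals of 1220 and 781 in ACKR2KO and WT colon, against 2.27 and 17.3 in ACKR2KO and WT small intestine, at least 15.2-fold higher in colon (3.93 ± 0.35, adjusted p = 0.000485). Hoxd11, which acts with Hoxa11 in kidney and forelimb, had 437 and 398 in ACKR2KO and WT colon, against 2.22 and 1.21 in ACKR2KO and WT small intestine, at least 6.50-fold higher in colon (2.70 ± 0.20, adjusted p = 0.000225). Neither gene reached the floor in any small-intestinal array. Hoxd9 was less even, with 131 and 349 in ACKR2KO and WT colon, against 7.03 and 15.2 in ACKR2KO and WT small intestine (1.74 ± 0.40, adjusted p = 0.032). Hoxd8 and Hoxd12 did not pass the test, at adjusted p-values of 0.0564 and 0.0666, although the colon pools were above the small-intestinal pools for both. The colon pools were above in this way for 14 of 24 Hox genes and for 31.4% of all tested genes.

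In HoxA, the genes from 9 to 13 were all higher in colon. Hoxa9 had signals of 1820 and 1900 in ACKR2KO and WT colon, against 70.8 and 61.2 in ACKR2KO and WT small intestine, a 27.6-fold difference (4.78 ± 0.31, adjusted p = 0.000112). Its other probe set differed by 1.98 in the same direction. Hoxa10 had 639 and 652 in ACKR2KO and WT colon, against 2.42 and 25.1 in ACKR2KO and WT small intestine, at least 10.1-fold higher in colon (3.33 ± 0.26, adjusted p = 0.000298). For both genes the 2 colon pools were nearly equal. Hoxa11, at least 4.83-fold higher in colon, had 261 and 369 in ACKR2KO and WT colon, against 29.0 and 50.9 in ACKR2KO and WT small intestine (2.27 ± 0.30, adjusted p = 0.00335). Hoxa13, which is needed with Hoxd13 for the hindgut and genital tract, had 294 and 491 in ACKR2KO and WT colon, against 34.6 and 47.6 in ACKR2KO and WT small intestine (at least 5.93-fold higher, 2.57 ± 0.39, adjusted p = 0.00618). Hoxa3 and Hoxa7 also had higher signals in both colon pools, but the differences of their 2 pairs were more than 1 apart on the log2 scale and neither passed the test (adjusted p = 0.161 and 0.193).

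The lower genes came from HoxB and HoxC, with 1 of uncertain direction in HoxA. Hoxc8, a central gene, was at the floor in colon, with signals of 11.2 and 18.1 in ACKR2KO and WT colon, against 449 and 485 in ACKR2KO and WT small intestine. It was at least 7.27-fold lower in colon (-2.86 ± 0.48, adjusted p = 0.0092). Hoxb6 had 96.9 and 144 in ACKR2KO and WT colon, against 390 and 597 in ACKR2KO and WT small intestine, 4.08-fold lower in colon (-2.03 ± 0.40, adjusted p = 0.0181). Hoxc6 had 84.9 and 114 in ACKR2KO and WT colon, against 259 and 367 in ACKR2KO and WT small intestine, 3.14-fold lower in colon (-1.65 ± 0.40, adjusted p = 0.0375). The groups did not overlap for any of these genes. In this downward direction the pools did not overlap for 7 of 24 Hox genes and for 18.6% of all tested genes. The probe set shared by Hoxb8 and Hoxb7 had 71.0 and 141 in ACKR2KO and WT colon, against 355 and 735 in ACKR2KO and WT small intestine. Hoxc4 had its 2 colon pools at the floor but missed the threshold (-1.35 ± 0.42, adjusted p = 0.0828).

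Hoxa5 depended on the probe set. The brighter one, which was used, had 277 and 278 in ACKR2KO and WT colon, against 849 and 587 in ACKR2KO and WT small intestine (-1.35 ± 0.33, adjusted p = 0.0395). The other had 431 and 660 in ACKR2KO and WT colon, against 97.2 and 140 in ACKR2KO and WT small intestine, a difference of 2.19 the other way. The direction for Hoxa5 is therefore not settled by these arrays.

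Without the array labelled WT small intestine, 8 of the 13 calls held, all of them higher and posterior (Hoxa9, Hoxa10, Hoxa11, Hoxa13, Hoxb13, Hoxd10, Hoxd11 and Hoxd13). Hoxb6, Hoxc8, Hoxc6, Hoxa5 and Hoxd9 were then not called, so all 4 lower calls ended, while the differences were -1.72 for Hoxb6, -2.81 for Hoxc8, -1.40 for Hoxc6 and -1.61 for Hoxa5 (adjusted p = 0.0925, 0.0575, 0.153 and 0.0711). That array itself had Hoxb13, Hoxd11 and Hoxd13 signals under the floor and the highest Hoxb6 and Hoxc8 signals of the series. Without both WT arrays 3 Hox genes were called, Hoxb13 (7.14, adjusted p = 0.0293), Hoxd11 (2.77, adjusted p = 0.0297) and, newly, Hoxb5 (-1.24, adjusted p = 0.031). The 6-coefficient model called 17 Hox genes, the same 13 with Hoxa3, Hoxb5, Hoxc4 and Hoxd8 (adjusted p = 0.0429, 0.0466, 0.0422 and 0.0287).

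Marker lists of other cell types were also compared between the tissues. The summed signal of the smooth muscle genes was 116329 and 137523 in ACKR2KO and WT colon, against 69977 and 65271 in ACKR2KO and WT small intestine, and 0 of 10 were called (median 1.11). The fibroblast and mesenchyme list had a median of 1.25 and the endothelial list of 0.63, with 0 genes called in either. Of the neuron and glia genes Prph and S100b were higher in colon, of the epithelial genes Vil1 and Krt20 were lower, and of the leukocyte genes Ptprc, Cd3e and Lyz2 were lower. Without the array labelled WT small intestine the calls for S100b, Krt20, Ptprc and Lyz2, and that for the label gene Gata4, ended, and Car1 was called higher in colon (8.23, adjusted p = 0.000949). Between the tumours, 5 of 7 leukocyte genes were lower in colon tumours (median -2.00), Vil1 was lower, and 0 smooth muscle (median 0.14), fibroblast, neuron or endothelial genes were called. Their part in the Hox differences was not tested.

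**Figure D2:**
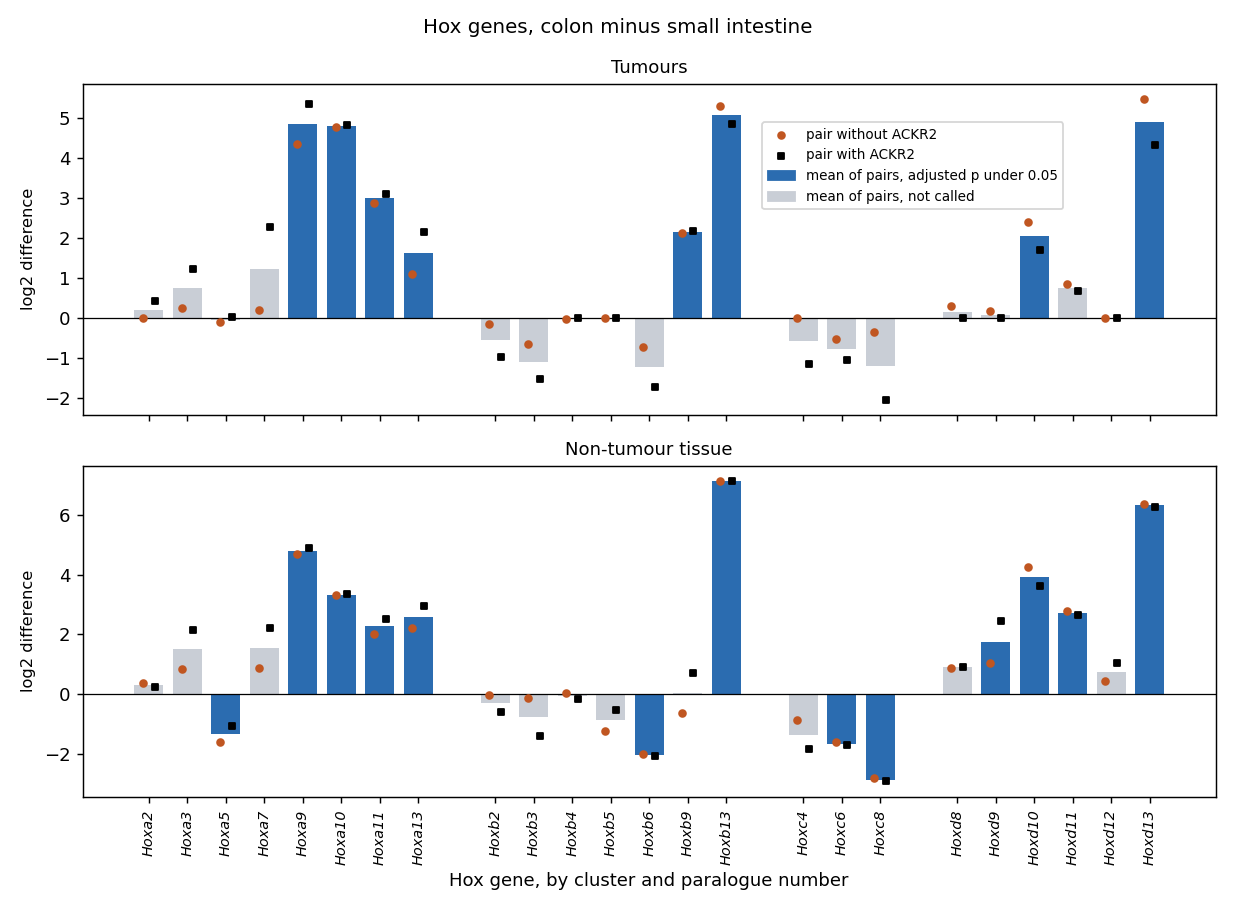
Colon minus small intestine on the log2 scale for each tested Hox gene, in tumours (upper panel) and tissue without tumours (lower panel). Bars are means of the 2 pairs of pools, points the single pairs, and blue bars genes called at an adjusted p under 0.05. Called genes above 0 are all posterior, and those below 0 in the lower panel are Hoxa5, Hoxb6, Hoxc6 and Hoxc8.

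Posterior Hox genes were also higher in colon tumours than in small-intestinal tumours. Here 8 of 24 Hox genes were higher in colon tumours and 0 lower, or 33.3%, beside 7.57% of all tested genes (2.72% higher and 4.85% lower). At an unadjusted p under 0.05, 12 Hox genes (of 24) differed, beside 20.8% of all genes. All 8 were posterior, out of 11. The posterior genes under the floor on all small-intestinal arrays could again only be higher in colon or unchanged. The posterior median was 2.15 on the log2 scale, the central median -0.03 and the median of all genes 0.07. Hoxa5 again supplied the central median, and its other probe set was higher in colon tumours, by 2.1. With the mean of its probe sets, Hoxa5, a central gene, was called higher in colon tumours (1.03, limma adjusted p = 0.046). The Spearman correlation with paralogue number was 0.65 over 24 genes, again as a description.

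Hoxb13 had signals of 2550 and 1870 in ACKR2KO_ApcMin and ApcMin colon tumours, against 5.81 and 1.12 in ACKR2KO_ApcMin and ApcMin small-intestinal tumours, at least 34.0-fold higher (5.09 ± 0.26, adjusted p = 0.000104). Hoxd13 had 2870 and 1290 in ACKR2KO_ApcMin and ApcMin colon tumours, against 52.3 and 38.8 in ACKR2KO_ApcMin and ApcMin small-intestinal tumours, at least 30.0-fold higher (4.91 ± 0.39, adjusted p = 0.000522). Small-intestinal tumours stayed under the floor for both genes. Hoxa9 had 4690 and 5490 in ACKR2KO_ApcMin and ApcMin colon tumours, against 229 and 135 in ACKR2KO_ApcMin and ApcMin small-intestinal tumours, 28.8-fold higher (4.85 ± 0.31, adjusted p = 0.000211). Hoxa10 had 1760 and 1840 in ACKR2KO_ApcMin and ApcMin colon tumours, against 41.3 and 15.3 in ACKR2KO_ApcMin and ApcMin small-intestinal tumours, at least 28.0-fold higher (4.81 ± 0.26, adjusted p = 0.000133). These 4 genes were far apart between the tissues in either genotype.

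The remaining 4 genes had smaller differences between floored signals. For Hoxd10 and Hoxa13 these are lower bounds, so the size of their differences cannot be ranked against the other genes. Hoxa11 had 493 and 677 in ACKR2KO_ApcMin and ApcMin colon tumours, against 66.4 and 79.0 in ACKR2KO_ApcMin and ApcMin small-intestinal tumours (7.98-fold higher, 3.0 ± 0.30, adjusted p = 0.00157). Hoxd10 had 340 and 208 in ACKR2KO_ApcMin and ApcMin colon tumours, against 3.48 and 2.28 in ACKR2KO_ApcMin and ApcMin small-intestinal tumours (at least 4.15-fold higher, 2.05 ± 0.35, adjusted p = 0.0124). Hoxb9 was called here but not in tissue without tumours, with 431 and 661 in ACKR2KO_ApcMin and ApcMin colon tumours, against 97.9 and 147 in ACKR2KO_ApcMin and ApcMin small-intestinal tumours (4.45-fold higher, 2.15 ± 0.44, adjusted p = 0.0258). The difference between those 2 tissue differences, 2.12 ± 0.62, did not pass the test (adjusted p = 0.203). Hoxa13 had 138 and 287 in ACKR2KO_ApcMin and ApcMin colon tumours, against 37.7 and 39.5 in ACKR2KO_ApcMin and ApcMin small-intestinal tumours (at least 3.10-fold higher, 1.63 ± 0.39, adjusted p = 0.0481).

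Hoxd9, Hoxd11 and Hoxd12 were not called between the tumours. Hoxd11 had 115 and 103 in ACKR2KO_ApcMin and ApcMin colon tumours and was under the floor in both small-intestinal tumour pools (0.76 ± 0.20, adjusted p = 0.0677). The central genes Hoxb6, Hoxc6 and Hoxc8 had mean differences of -1.21, -0.77 and -1.18, at adjusted p-values of 0.132, 0.331 and 0.212. Without ACKR2KO_ApcMin colon tumours or without ApcMin small-intestinal tumours 5 genes were called in each case, without both ACKR2KO_ApcMin arrays 4 (Hoxa9, Hoxa10, Hoxb13 and Hoxd13), and without both WT arrays 0. With the array labelled WT small intestine left out, 6 were called, and Hoxa13 and Hoxb9 were not (adjusted p = 0.0907 and 0.051). The call for Hoxb9 and that for Hoxa13 ended whichever array was left out, with adjusted p-values up to 0.223 and 0.279.

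Colon tumours differed from colon without tumours in opposite directions within the posterior Hox genes. Of 24 Hox genes, 2 were higher in tumours (Hoxa9 and Hoxa10) and 7 lower (Hoxb2, Hoxb3, Hoxb13, Hoxd8, Hoxd9, Hoxd10 and Hoxd11), or 37.5%, while 11.7% of all tested genes were called (5.38% higher and 6.31% lower). HoxD had 4 of 6 tested genes lower, HoxB 3 of 7, HoxC 0 of 3, and HoxA 2 of 8 higher. The median differences were 0.25 for HoxA, -0.88 for HoxB, 0 for HoxC and -1.52 for HoxD on the log2 scale, beside 0 over all tested genes. The Spearman correlation with paralogue number was -0.19, beside 0.68 and 0.65 for the differences between the tissues.

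Hoxa9 and Hoxa10, both known from blood stem and progenitor cells, were higher in colon tumours. Hoxa9 had signals of 4690 and 5490 in ACKR2KO_ApcMin and ApcMin colon tumours, against 1820 and 1900 in ACKR2KO and WT colon (2.73-fold higher, 1.45 ± 0.31, adjusted p = 0.0246). Its other probe set differed by 0.81. Hoxa10 had 1760 and 1840 in ACKR2KO_ApcMin and ApcMin colon tumours, against 639 and 652 in ACKR2KO and WT colon (2.78-fold higher, 1.48 ± 0.26, adjusted p = 0.0145). For both genes each tumour pool was above each pool without tumours. Such an order was seen for 4 of 24 Hox genes and for 26.4% of all tested genes. The neighbour Hoxa11 had 493 and 677 in ACKR2KO_ApcMin and ApcMin colon tumours, against 261 and 369 in ACKR2KO and WT colon, with no overlap but no call (0.90 ± 0.30, adjusted p = 0.103). Hoxa13 had 138 and 287 in ACKR2KO_ApcMin and ApcMin colon tumours, against 294 and 491 in ACKR2KO and WT colon (-0.93 ± 0.39, adjusted p = 0.177).

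Hoxb13 and 4 of 6 HoxD genes were lower in colon tumours. Hoxb13 had 2550 and 1870 in ACKR2KO_ApcMin and ApcMin colon tumours, against 9040 and 8940 in ACKR2KO and WT colon (4.12-fold lower, -2.04 ± 0.26, adjusted p = 0.00472). Hoxd11 had 115 and 103 in ACKR2KO_ApcMin and ApcMin colon tumours, against 437 and 398 in ACKR2KO and WT colon (3.83-fold lower, -1.94 ± 0.20, adjusted p = 0.0025). Hoxd10 had 340 and 208 in ACKR2KO_ApcMin and ApcMin colon tumours, against 1220 and 781 in ACKR2KO and WT colon (3.67-fold lower, -1.88 ± 0.35, adjusted p = 0.0162). The tumour pools lay below the other colon pools in all 3 cases. That order was seen for 12 of 24 Hox genes and for 26.6% of all tested genes. Hoxd9 had 72.8 and 23.2 in ACKR2KO_ApcMin and ApcMin colon tumours, against 131 and 349 in ACKR2KO and WT colon (-1.64 ± 0.40, adjusted p = 0.0386). Hoxd8 had 79.5 and 95.9 in ACKR2KO_ApcMin and ApcMin colon tumours, against 172 and 185 in ACKR2KO and WT colon (2.05-fold lower, -1.03 ± 0.24, adjusted p = 0.0354). Hoxd13 had 2870 and 1290 in ACKR2KO_ApcMin and ApcMin colon tumours, against 5310 and 4870 in ACKR2KO and WT colon, and just missed the threshold (-1.40 ± 0.39, adjusted p = 0.0563). Its second probe set differed by -2.40. Hoxd12 also missed the threshold (-0.73 ± 0.21, adjusted p = 0.0639).

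The anterior genes Hoxb2 and Hoxb3 were also lower. Hoxb2 had 96.2 and 107 in ACKR2KO_ApcMin and ApcMin colon tumours, against 302 and 268 in ACKR2KO and WT colon (2.80-fold lower, -1.49 ± 0.38, adjusted p = 0.0443). Hoxb3 had 68.2 and 58.6 in ACKR2KO_ApcMin and ApcMin colon tumours, against 217 and 154 in ACKR2KO and WT colon (-1.47 ± 0.38, adjusted p = 0.0483). Its other probe set differed by -0.88. Hoxb9 was close to even, with 431 and 661 in ACKR2KO_ApcMin and ApcMin colon tumours, against 336 and 681 in ACKR2KO and WT colon (0.16 ± 0.44, adjusted p = 0.88).

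**Figure D3:**
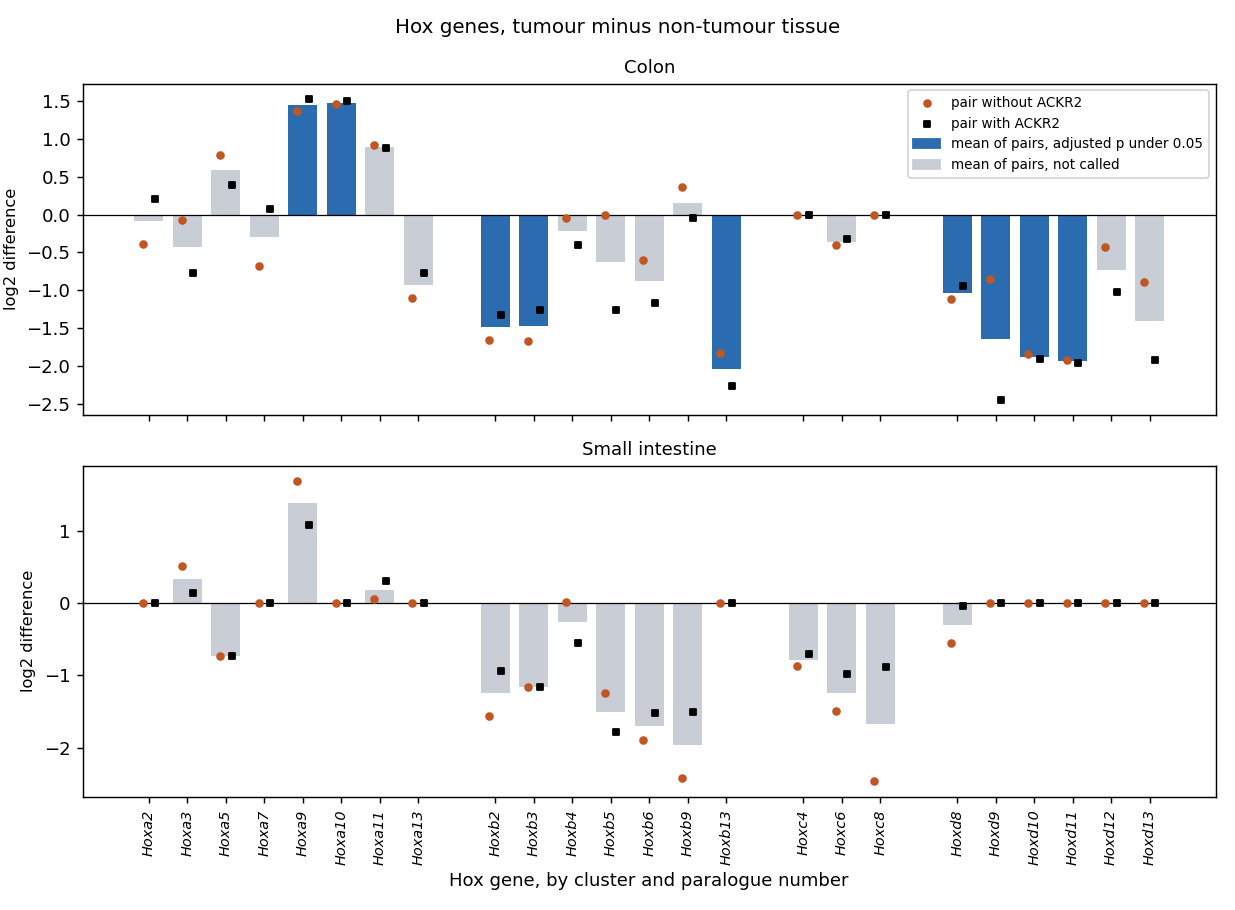
Tumour minus tissue without tumours on the log2 scale for each tested Hox gene in colon (upper panel) and small intestine (lower panel), with bars, points and colours as in the plot of colon minus small intestine. In colon Hoxa9 and Hoxa10 lie above 0 and Hoxb2, Hoxb3, Hoxb13 and 4 HoxD genes below it among the called genes; in small intestine no bar is called.

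Of these 9 calls, 1 held whichever array was left out (Hoxd11, with an adjusted p of at most 0.0213), against 7 of 13 between the tissues without tumours and 5 of 8 between the tumours. Hoxd11 was at the floor on all small-intestinal arrays, so those arrays added no spread to its error. Leaving out ACKR2KO_ApcMin colon tumours, ApcMin colon tumours or ACKR2KO colon gave 3 called Hox genes each, of which 2, 3 and 2 were among the 9. The new calls were Hoxd13 without ACKR2KO_ApcMin colon tumours and Hoxd12 without ACKR2KO colon. Without WT colon 4 of the 9 were called and without ACKR2KO small intestine 5. Without the array labelled WT small intestine 5 were called, and Hoxb2, Hoxb3, Hoxd8 and Hoxd9 were not (adjusted p from 0.0511 to 0.0698). The calls for Hoxb3 and Hoxd8 each held in 1 of the other settings tried (of 9 and 8), and that for Hoxb3 with 0 of 8 arrays left out. The 6-coefficient model called 6 Hox genes, with Hoxa9 (adjusted p = 0.0527), Hoxb2, Hoxb3 and Hoxd8 lost and Hoxd13 gained (-1.66, adjusted p = 0.043). Its tumour difference is an estimate for mice with ACKR2, not the mean over genotypes, so it is not the same comparison. With no floor the calls for Hoxd11, Hoxb13, Hoxa10, Hoxd10, Hoxd9, Hoxd8 and Hoxb3 ended, and those for Hoxa9 and Hoxb2 stayed. Without both WT arrays, or without both ACKR2KO_ApcMin arrays, 1 was called, Hoxd11 (adjusted p = 0.0338 and 0.0485).

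Markers of other cell types moved with the same comparison. The summed signal of 10 smooth muscle genes was 9915 and 36200 in ACKR2KO_ApcMin and ApcMin colon tumours, against 116329 and 137523 in ACKR2KO and WT colon. In this list 7 of 10 genes were lower in colon tumours (Myh11, Acta2, Cnn1, Des, Smtn, Lmod1 and Mylk), with a median of -3.58. Of 8 enteric neuron and glia genes 3 were lower (Prph, Snap25 and S100b, median -1.36), and of 11 fibroblast and mesenchyme genes 1 was lower (Lum, median -0.92). The summed signal of 8 epithelial genes was 114313 and 113774 in ACKR2KO_ApcMin and ApcMin colon tumours, against 116194 and 125435 in ACKR2KO and WT colon, and none was called (median -0.17). Of 7 leukocyte genes 1 was higher (Lyz2), and of 5 endothelial genes none was called. Without the array labelled WT small intestine 3 of the 7 smooth muscle calls held (Smtn, Lmod1 and Mylk), and Elavl4, a neuronal gene, was called lower (-1.30, adjusted p = 0.0258).  The part of smooth muscle and of the other cell types in the Hox differences was not tested. Xist and Eif2s3y also moved with tumour status in colon, as given above, and with them it cannot be told apart.

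In small intestine, tumours showed no called Hox gene against tissue without tumours. Of 24 Hox genes 0 were called by limma, beside 1.93% of all tested genes (1.68% higher and 0.25% lower), and 8 had an unadjusted p under 0.05, beside 12.3% of all genes. The 6-coefficient limma model, which adds ACKR2 terms and estimates the tumour difference for mice with ACKR2, also called 0. The smallest adjusted p was 0.0809, for Hoxa9. Counting instead genes that differed 2-fold or more in both pairs with the same sign, a description with no test, 1 Hox gene was higher and 4 lower, beside 4.28% of all genes (3.14% higher and 1.13% lower). That count gave 9 higher and 4 lower Hox genes between the tissues without tumours, beside 12% of all genes (7.08% and 4.94%). It gave 8 and 0 between the tumours, beside 7.72% (2.79% and 4.93%), and 2 and 5 for colon tumours, beside 11% (4.86% and 6.18%).

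Hoxa9 was the 1 higher gene, with signals of 229 and 135 in ACKR2KO_ApcMin and ApcMin small-intestinal tumours, against 70.8 and 61.2 in ACKR2KO and WT small intestine (1.39 ± 0.31). Its other probe set differed by -0.03, so this difference was seen at 1 of its 2 probe sets. The 4 lower genes were Hoxb3, Hoxb5, Hoxb6 and Hoxb9, all in HoxB. Hoxb9 had 97.9 and 147 in ACKR2KO_ApcMin and ApcMin small-intestinal tumours, against 524 and 416 in ACKR2KO and WT small intestine (-1.96 ± 0.44, adjusted p = 0.0834). Hoxb6 had 105 and 209 in ACKR2KO_ApcMin and ApcMin small-intestinal tumours, against 390 and 597 in ACKR2KO and WT small intestine (-1.70 ± 0.40, adjusted p = 0.104). Hoxb5 had 13.5 and 53.1 in ACKR2KO_ApcMin and ApcMin small-intestinal tumours, against 152 and 220 in ACKR2KO and WT small intestine (-1.51 ± 0.39, adjusted p = 0.131). Hoxb3 had 107 and 183 in ACKR2KO_ApcMin and ApcMin small-intestinal tumours, against 239 and 409 in ACKR2KO and WT small intestine (-1.16 ± 0.38, adjusted p = 0.245).

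Hoxc8, Hoxc6 and the anterior gene Hoxb2 had lower signals in both tumour pools without passing the test. Hoxc8 had 81.2 and 262 in ACKR2KO_ApcMin and ApcMin small-intestinal tumours, against 449 and 485 in ACKR2KO and WT small intestine (-1.68 ± 0.48, adjusted p = 0.176). Hoxc6 had 91.9 and 186 in ACKR2KO_ApcMin and ApcMin small-intestinal tumours, against 259 and 367 in ACKR2KO and WT small intestine (-1.24 ± 0.40, adjusted p = 0.225). Hoxb2 had 105 and 210 in ACKR2KO_ApcMin and ApcMin small-intestinal tumours, against 310 and 402 in ACKR2KO and WT small intestine (-1.25 ± 0.38, adjusted p = 0.198). The groups did not overlap for these 3 genes or for the 4 HoxB genes above. Among all tested genes the pools did not overlap for 14.9% in this downward direction, and among Hox genes for 8 of 24. The posterior genes Hoxa10, Hoxa13, Hoxb13, Hoxd9, Hoxd10, Hoxd11, Hoxd12 and Hoxd13 were at or under the floor in all 4 small-intestinal arrays, so no tumour difference could be measured for them. The same held for Hoxa2 and Hoxa7.

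After quantile normalization, a setting that rescales whole arrays, 3 Hox genes were called lower in small-intestinal tumours (Hoxb5, Hoxb6 and Hoxb9, with adjusted p-values of 0.0291, 0.0279 and 0.0453). After median centring Hoxb5 and Hoxb6 were called. Without the array labelled WT small intestine the differences were 1.31 for Hoxa9, -2.13 for Hoxb9, -1.39 for Hoxb6, -1.24 for Hoxb5, -0.77 for Hoxb3, -1.62 for Hoxc8, -0.99 for Hoxc6 and -1.06 for Hoxb2, none of them called (adjusted p from 0.233 to 0.579).

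Smooth muscle markers had lower sums in these tumour pools too. Their summed signal was 12623 and 27172 in ACKR2KO_ApcMin and ApcMin small-intestinal tumours, against 69977 and 65271 in ACKR2KO and WT small intestine, and 0 of 10 genes was called (median -2.21). The medians were -0.44 for fibroblast and mesenchyme, -0.65 for neurons and glia, -0.23 for endothelium and -0.17 for epithelium, with 0 genes called in each. Of 7 leukocyte genes, 2 were higher (Ptprc and Cd52), and neither was called without the array labelled WT small intestine (adjusted p = 0.163 and 0.0824). The part of these cell types in the Hox differences was not tested. Sex markers moved with tumour status here too and cannot be told apart from it.

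**Figure D4:**
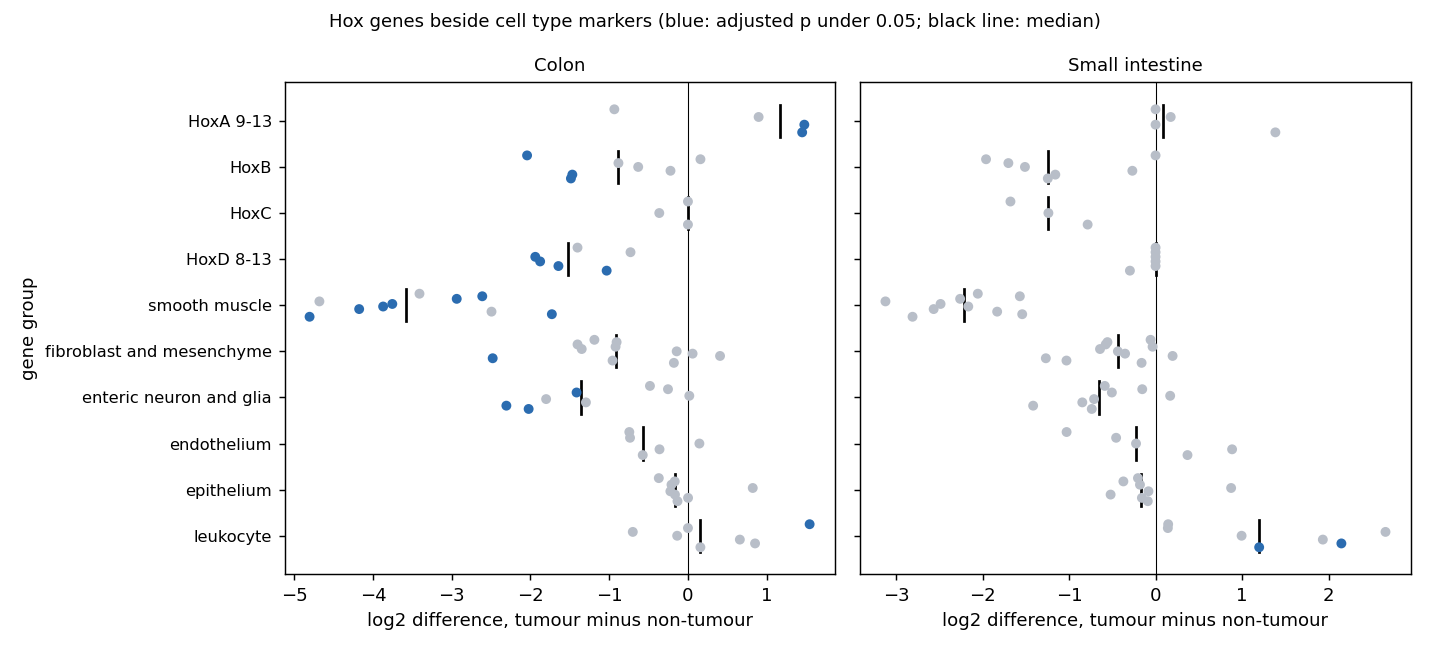
Tumour minus tissue without tumours on the log2 scale for tested Hox genes by cluster (HoxA 9 to 13, HoxB, HoxC, HoxD 8 to 13) and for the marker lists, in colon (left) and small intestine (right). Points are genes, blue where called, and black lines are medians; the smooth muscle medians are -3.58 in colon and -2.21 in small intestine, and the epithelial median is -0.17 in both.

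Whether the tumour difference itself differed between colon and small intestine was tested by the interaction. It was called for 2 of 24 Hox genes, Hoxb13 (-2.04 ± 0.37, adjusted p = 0.0496) and Hoxd11 (-1.94 ± 0.29, adjusted p = 0.0278), beside 1.25% of all tested genes (0.364% higher and 0.884% lower), and 10 had an unadjusted p under 0.05, beside 11.7% of all genes. Both called genes were at the floor on all 4 small-intestinal arrays, so the interaction has the same value as the difference in colon and does not show that the tumour differences of the tissues differ. The same limit holds for Hoxa10, Hoxd9, Hoxd10, Hoxd12 and Hoxd13 among the 10 genes. Hoxc8, also among them, was at the floor on all colon arrays, so its value restates the small-intestinal difference. The count of 10 therefore does not show an excess of Hox genes whose tumour difference depends on tissue. Neither Hoxb13 nor Hoxd11 was called without the array labelled WT small intestine (adjusted p = 0.131 and 0.11). For Hoxa9 it was 0.06 ± 0.43 (adjusted p = 0.985). For Hoxb9 and Hoxa10 it was 2.12 and 1.48 (adjusted p = 0.203 and 0.145). With single arrays left out between 0 and 3 Hox genes were called, and the call for Hoxb13 ended whichever array was left out.

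ACKR2 genotype made no called difference to any Hox gene. In the 6-coefficient model, 0 of 24 Hox genes were called for ACKR2 loss in tumours, beside 0.0357% of all genes, and 1 had an unadjusted p under 0.05, beside 15.6% of all genes. In tissue without tumours 0 were called, beside 0.685% of all genes, and 3 had an unadjusted p under 0.05, beside 24.8% of all genes. The smallest adjusted p-values were 0.241 and 0.0927. In this comparison ACKR2 genotype moved with the sex markers and the Actb 3'/5' ratio given above, and with them it cannot be told apart.

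The TALE homeodomain proteins, which bind DNA together with Hox proteins, were described as a list of 7 tested genes. Meis1 was lower in tumours of both tissues. It had signals of 8.21 and 38.2 in ACKR2KO_ApcMin and ApcMin colon tumours, against 413 and 342 in ACKR2KO and WT colon (-2.55 ± 0.22, adjusted p = 0.00112). In small intestine it had 4.10 and 47.8 in ACKR2KO_ApcMin and ApcMin tumours, against 174 in both the ACKR2KO and the WT pool (-1.44 ± 0.22, adjusted p = 0.0215). All 4 tumour pools were under the floor. Meis2 was lower in colon tumours (-1.57 ± 0.32, adjusted p = 0.0225). Meis1 was also higher in colon than in small intestine without tumours (1.11 ± 0.22, adjusted p = 0.0175), and no other TALE gene was called in any of the 4 comparisons. The call for Meis1 in colon tumours held without the array labelled WT small intestine (adjusted p = 0.00571), and those in small-intestinal tumours and between the tissues did not (adjusted p = 0.106 and 0.0684).

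The caudal genes Cdx1 and Cdx2, regulators of gut identity and of Hox genes in the embryo, were the 2 tested members of their list, and neither was called in any comparison. Cdx2 had signals of 629 and 3150 in ACKR2KO_ApcMin and ApcMin colon tumours, against 261 and 1730 in ACKR2KO and WT colon. In small intestine it had 2630 and 3840 in ACKR2KO_ApcMin and ApcMin tumours, against 2490 and 6640 in ACKR2KO and WT tissue. In each of these pairs the pool without ACKR2 had the lower Cdx2 signal. Retinoic acid, the vitamin A derivative that turns on Hox genes in order, was followed through 12 genes. In colon tumours 3 were higher, the receptor Rarb (1.55 ± 0.36, adjusted p = 0.0322) and the synthetic enzymes Aldh1a3 (2.38 ± 0.57, adjusted p = 0.0359) and Rdh10 (1.33 ± 0.34, adjusted p = 0.0457), and 0 were lower. Of all tested genes, 5.38% were called higher and 6.31% lower in colon tumours. In small-intestinal tumours Rarb was the 1 higher gene of this list (2.21 ± 0.36, adjusted p = 0.0268). Between the tissues, Aldh1a1 was lower in colon tumours than in small-intestinal tumours (-2.81 ± 0.66, adjusted p = 0.0442), and 0 were called without tumours. When the array labelled WT small intestine was left out, Rarb (adjusted p = 0.0604 in colon tumours and 0.13 in small-intestinal tumours), Aldh1a3 (0.0614) and Aldh1a1 (0.0804) were not called, and Rdh10 was called in small-intestinal tumours (1.98, adjusted p = 0.0436).

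Polycomb and trithorax proteins keep Hox clusters silent or active, and 18 of their genes were tested. In colon tumours Ezh2, the histone methyltransferase of Polycomb complex PRC2, was higher (1.70 ± 0.26, adjusted p = 0.00831), as was Cbx2 (1.15 ± 0.30, adjusted p = 0.048), and Ezh1 was lower (-0.80 ± 0.21, adjusted p = 0.0486). The list thus had 2 genes higher and 1 lower of 18, beside 11.7% of all tested genes called in this comparison. The other 15 were not called there. The calls for Cbx2 and Ezh1 ended without the array labelled WT small intestine (adjusted p = 0.0634 and 0.0705). None of the 18 was called in small-intestinal tumours or between the tissues. The median over the list was 0.31 in colon tumours and 0.27 in small-intestinal tumours, beside 0 and 0.04 over all genes.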

How the data were processed

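The authors deposited 1 intensity value per probe set and array on the linear scale, made with MAS5 and analysed with Partek per the submitters' processing notes (versions not given in the sources used here). Per the labels' protocols, RNA was extracted with Trizol and RNeasy columns, pooled per genotype, and labelled with the Affymetrix 3' IVT Express kit. Precision is limited by there being 8 arrays.

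Of 45101 probe sets, 64 controls were left out, 34945 had 1 gene in the platform annotation, 932 several and 9160 none. The probe set with the highest mean represented each of 18193 genes. Signals were raised to a floor of 64.1 (the median over arrays of the 40th percentile) and log2 was taken. Genes above it in at least 2 of 8 arrays (14023) were fitted in 1 limma model (3.58.1, R 4.3.3, empirical Bayes with a trend) with 4 means, tissue by tumour status, which left 4 residual and 3.63 prior degrees of freedom and a median SD of 0.301. Tests were two-sided with Benjamini-Hochberg adjustment. A model with 6 coefficients adds an ACKR2 term per tumour status. Its tumour differences are estimates for mice with ACKR2, while those of the main model are means over both genotypes. The procedure was tested on simulated data.

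Per-array values were to be given for members called in a comparison or at least 2-fold apart in both pairs of one, and other members by range; list genes were named where called. Members and lists (TALE, caudal and ParaHox, retinoic acid, Polycomb and trithorax, tissue labels, smooth muscle, fibroblast, neuron and glia, endothelium, epithelium, leukocyte) were chosen with earlier results of these data known. The alternatives were other floors and filters, no floor, quantile normalization, median centring, the mean of probe sets, the 6-coefficient model, no trend and each array left out. Leaving out both WT or both ACKR2KO_ApcMin arrays and describing every Hox probe set alone were chosen after seeing the data.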

Additional observations from a re-analysis of the deposited data

Results flagged for a closer look

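For 2 Hox genes the interaction test of the limma model, tumour difference in colon minus tumour difference in small intestine, was under the threshold. The value was -2.04 on the log2 scale for Hoxb13 and -1.94 for Hoxd11 (adjusted p = 0.0496 and 0.0278). Hoxb13 had 2550 and 1870 in ACKR2KO_ApcMin and ApcMin colon tumours, against 9040 and 8940 in ACKR2KO and WT colon. Hoxd11 had 115 and 103 in ACKR2KO_ApcMin and ApcMin colon tumours, against 437 and 398 in ACKR2KO and WT colon. Both genes were at the floor on the 4 small-intestinal arrays, so a tumour difference there could not be measured. The values restate the colon differences and do not show that the tissues differ.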

How the results depend on the processing

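The counts of called Hox genes were 13 and 8 for colon minus small intestine (without tumours and in tumours), 9 and 0 for tumour minus tissue without tumours (colon and small intestine) and 2 for the interaction. A floor at the 25th percentile left the interaction at 0. A floor at the 60th percentile gave 5 calls between the tumours and 2 in small-intestinal tumours (Hoxb6 and Hoxc8). With no floor 2 were called in colon tumours and 0 by the interaction; with no filter 8 were called between the tissues without tumours and 3 in colon tumours. With only genes above the floor on all 8 arrays, which left 3 Hox genes, 1 was called in each of the first 3 comparisons and 0 by the interaction. Quantile normalization gave 3 in small-intestinal tumours and 1 by the interaction. Median centring gave 5 in colon tumours, 2 in small-intestinal tumours and 0 by the interaction, and it moved the median of all genes from 0.04 to -0.12 in small-intestinal tumours, from 0.07 to 0.17 between the tumours and from -0.07 to 0.12 for the interaction. With 1 array left out the counts ran from 8 to 12 and from 5 to 7 for the tissues, from 3 to 7 and from 0 to 1 for the tumours, and from 0 to 3 for the interaction; a pool left alone was assumed to vary like the others. Without both WT arrays the counts were 3, 0, 1 and, for the interaction, 0, and without both ACKR2KO_ApcMin arrays 8, 4, 1 and 0.

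By the description of 2-fold in both pairs, the counts were 13, 8, 7 and 5. A floor at the 25th percentile gave 13 and no floor 15 between the tumours, a floor at the 60th gave 2 in small-intestinal tumours, and the filter on all 8 arrays gave 1 in each. That description was not recomputed with arrays left out or with another model. Hoxa5 in tissue without tumours was the 1 value that changed sign, to 0.42 (adjusted p = 0.331) with the mean of its probe sets, which differ in direction. Outside the left-out arrays, 227 of the single-gene values kept their direction and call and 60 kept the direction alone; with arrays left out, 172 kept both and 148 the direction alone. Apart from values whose setting removes genes or arrays, the cause was not tested. The labels give no replicate numbers. The 6-coefficient model, which has an ACKR2 term per tumour status shared by both tissues, gave 17, 8, 6, 0 and 2. Its 6 and 0 are for tumour differences in mice with ACKR2, not for means over genotypes. Signals at the floor limit what can be seen: 9 Hox genes could not be tested, and 8 posterior ones, Hoxa2 and Hoxa7 were under the floor on all 4 small-intestinal arrays.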
